A study of Homo sapiens with 6 samples.

Results

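Imprinted genes are expressed mainly from the copy inherited from 1 parent. The 10 genes described here are H19, IGF2, MEG3, DLK1, PEG3, PEG10, MEST, SNRPN, CDKN1C and PLAGL1, which were chosen by symbol from a count table of 39396 genes. All 10 were found, each in 1 row. They were compared between 3 libraries of the colorectal carcinoma line RKO labelled olaparib, an inhibitor of the PARP enzymes, and 3 labelled DMSO, the solvent. Both groups carry the genotype label WT, and the title of the study concerns olaparib sensitivity, the acetyltransferase KAT2B and RAD51C. The sources used here give neither dose nor length of treatment. Whether the 3 libraries of a group are separate cultures is not labelled, so each p-value weighs a difference only against the spread among these libraries, which may be technical.

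At an imprinting control region, DNA methylation set in the germ line on 1 parental copy is kept through cell division and decides which copy is transcribed. ZFP57 and ZNF445 with TRIM28 protect that methylation after fertilization, DNMT1 and UHRF1 copy it at replication, and TET enzymes oxidise methylated cytosine. CTCF binds the unmethylated control region between H19 and IGF2 and separates IGF2 from shared enhancers. Many imprinted genes act on fetal growth, and loss of imprinting of IGF2 is well known from colorectal cancer. The counts used here do not tell the parental copies apart, so every value is the sum over all copies of a gene.

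Library totals ran from 28715138 to 31387990 counts in olaparib and from 29544974 to 42423785 in DMSO, and no 2 libraries of a group agreed within sampling noise. Markers of the labelled cell type and of others differed between the groups. Among all 17078 genes tested, 75.7% differed by the test used here, 35.4% higher and 40.3% lower, which are the shares to set beside the counts of markers. Of 12 markers of colorectal epithelium, 6 were tested, 4 were higher and 1 lower, and their summed level in CPM, counts scaled to library size, was 816 to 1098 CPM in olaparib and 242 to 311 CPM in DMSO, mostly from KRT8 and KRT18. HNF4A, a transcription factor of liver and gut, averaged 9.69 CPM in olaparib and 0.121 CPM in DMSO. CDX2, the intestinal transcription factor, was without a count in all olaparib libraries but averaged 24.5 CPM in DMSO, and CDX1 had none in any library. Of 9 markers of embryonic kidney lines, 8 were lower and 1 higher, with summed levels of 35.5 to 36.2 CPM in olaparib and 268 to 473 CPM in DMSO, and PAX2 and NEFL had no olaparib count. Of 7 fibroblast markers 1 was higher and 4 lower, with sums of 103 to 136 CPM in olaparib and 93.8 to 101 CPM in DMSO. Of 6 blood markers 2 were lower, with sums of 2.83 to 3.49 CPM in olaparib and 4.68 to 5.84 CPM in DMSO. These values moved with the same 2 groups as the imprinted genes, and their part in the results was not tested. A difference in cell source and the treatment cannot be told apart.

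The clearest differences lay in 5 members. CDKN1C, MEST and SNRPN were higher in the olaparib libraries, 6.53-fold, 10.01-fold and 19.01-fold. H19 was 2.20-fold lower, and IGF2 had no count in any olaparib library. PLAGL1 was 1.52-fold higher, and PEG10 was 1.41-fold higher with overlapping groups. MEG3, DLK1 and PEG3 held between 0 and 4 counts over all 6 libraries and were too low to test.

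Of the 10 members, 7 passed the filter on low counts, and the quasi-likelihood test of edgeR called all 7 at a Benjamini-Hochberg adjusted p of 0.05, 5 higher and 2 lower in olaparib. Over all 17078 genes tested, 75.7% were called, 35.4% higher and 40.3% lower, so a call alone does not set these genes apart from the rest. A difference of at least 2-fold was seen in 5 of the 7, and in 47.0% of all tested genes. The median log2 fold change was 0.60 over the tested members and -0.09 over all tested genes, and the median size regardless of direction was 2.71 and 0.94. Both medians of the members were the same with IGF2 at its lower bound. In 6 of the 7 the groups did not overlap, as in 79.3% of all tested genes. IGF2 reached the cutoff of the filter, 0.328 CPM of the unscaled library total, only in DMSO libraries, and SNRPN only in olaparib libraries, so a difference was built into their passing. The same held for 2008 of the 17078 tested genes. Of the 15070 genes that reached the cutoff in both groups, 72.6% were called, as were all 5 such members, so these counts and medians describe the members and support nothing further. In bulk libraries, fewer cells expressing a gene and less RNA per cell cannot be told apart.

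**Figure D1:**
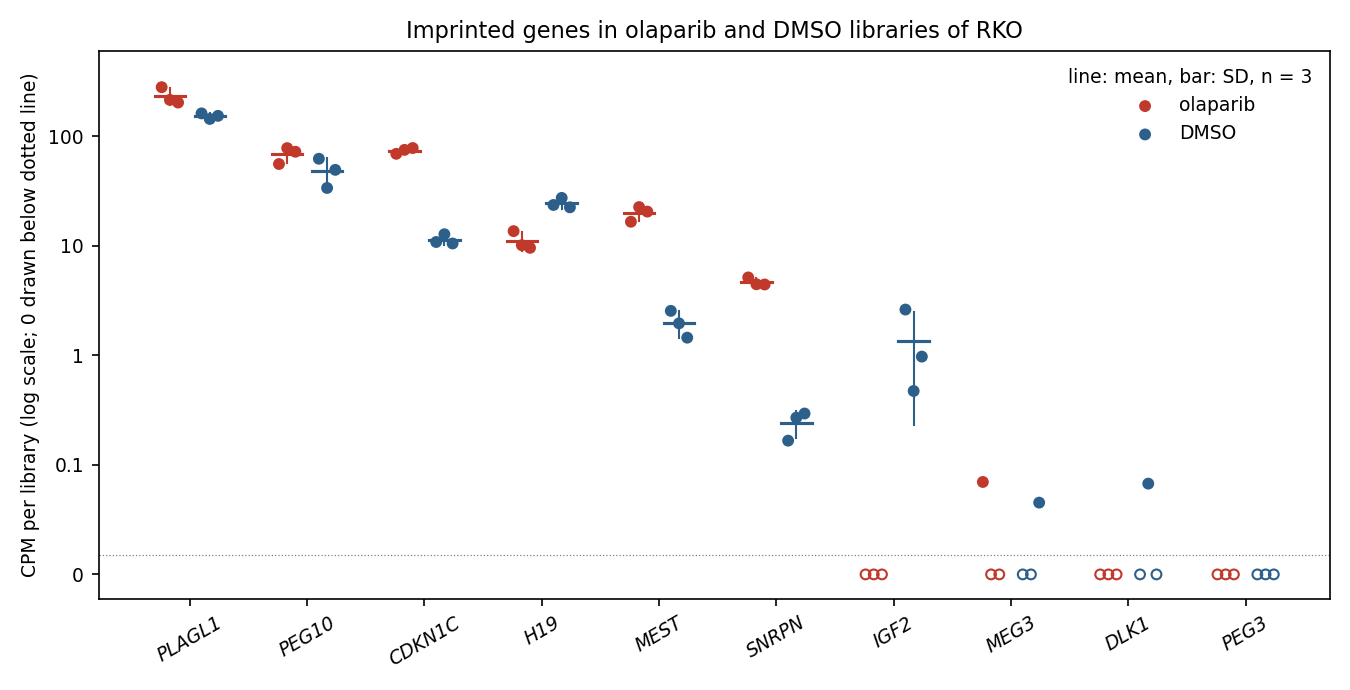
Level in CPM (counts scaled to library size, log axis) of the 10 imprinted genes in each library, olaparib in red left of DMSO in blue; lines are means and bars SDs over 3 libraries, drawn where all 3 hold a count, and open circles are libraries without a count. MEST, SNRPN and CDKN1C stand higher in all 3 olaparib libraries, H19 stands lower, and IGF2 has no olaparib count.

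**Figure D2:**
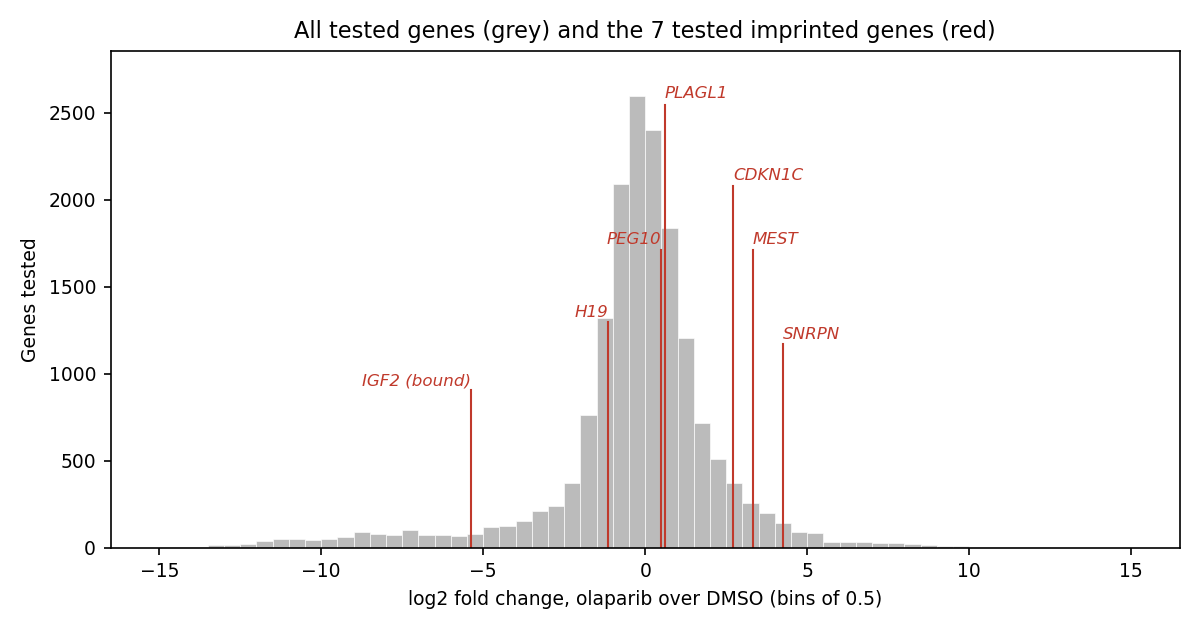
Number of tested genes (y axis) by log2 fold change, olaparib over DMSO (x axis, bins of 0.5), with the 7 tested imprinted genes as red lines of arbitrary height. IGF2 is drawn at its bound of -5.39, genes without a count in a group at the fitted value, and CDKN1C, MEST and SNRPN lie right of the bulk of the 17078 genes.

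Start-site sequence from RefSeq was at hand for 5 of the 10 members. For H19, MEST, SNRPN and PLAGL1, the 4 of them that were tested, the window with the most CG pairs is printed, since these genes show both directions and methylation of CG pairs at their starts is part of their imprinting. Each window runs from 250 bases before to 50 bases after a start, on the strand given, in build GRCh38.p14. Capitals mark TGCCGC and its reverse complement GCGGCA, the letters that ZFP57 reads when the CG is methylated; sites on the 2 strands may overlap.
H19, chr11:2001217-2001516, minus strand: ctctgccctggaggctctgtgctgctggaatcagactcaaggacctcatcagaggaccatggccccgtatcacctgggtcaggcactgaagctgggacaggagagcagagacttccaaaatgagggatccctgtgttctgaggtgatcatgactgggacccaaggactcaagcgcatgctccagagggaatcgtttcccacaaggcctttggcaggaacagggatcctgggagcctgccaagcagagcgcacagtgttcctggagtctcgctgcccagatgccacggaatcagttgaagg
MEST, chr7:130491835-130492134, plus strand: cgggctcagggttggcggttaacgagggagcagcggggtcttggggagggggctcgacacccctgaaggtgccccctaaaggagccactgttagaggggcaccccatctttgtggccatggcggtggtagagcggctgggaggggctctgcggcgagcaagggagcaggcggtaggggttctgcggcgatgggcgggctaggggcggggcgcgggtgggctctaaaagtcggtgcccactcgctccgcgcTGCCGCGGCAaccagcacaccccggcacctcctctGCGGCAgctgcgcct
SNRPN, chr15:24954737-24955036, plus strand: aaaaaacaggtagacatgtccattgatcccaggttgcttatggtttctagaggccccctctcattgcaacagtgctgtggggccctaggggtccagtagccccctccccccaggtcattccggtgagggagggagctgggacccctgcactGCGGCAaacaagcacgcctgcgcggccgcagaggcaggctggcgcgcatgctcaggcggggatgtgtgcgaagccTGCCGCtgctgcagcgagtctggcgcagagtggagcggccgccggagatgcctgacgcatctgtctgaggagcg
PLAGL1, chr6:144008210-144008509, minus strand: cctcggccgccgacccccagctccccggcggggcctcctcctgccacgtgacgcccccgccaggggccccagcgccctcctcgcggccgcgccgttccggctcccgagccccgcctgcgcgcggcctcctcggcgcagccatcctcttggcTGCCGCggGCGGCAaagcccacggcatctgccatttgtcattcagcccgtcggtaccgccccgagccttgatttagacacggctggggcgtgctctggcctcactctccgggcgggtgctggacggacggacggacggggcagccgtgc

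The MEST window holds 25 CG pairs and 3 of these hexamers, 2 of which overlap. The SNRPN window holds 18 CG pairs and 2 hexamers, and it is also the listed start of SNURF. The PLAGL1 window holds 39 CG pairs and 2 hexamers, and it is shared with HYMAI, a non-coding RNA. H19 has 6 CG pairs in its window and no hexamer, which says only that these letters are not in these 300 bases. Over all 35116 windows the median was 14 CG pairs, and 16.7% of windows held the hexamer on either strand. At least 39 CG pairs were found in 8.71% of windows, at least 25 in 32.03% and at least 18 in 44.5%. These matches describe the reference sequence; methylation was not measured here.

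CDKN1C encodes p57, an inhibitor of cyclin-dependent kinases that is expressed from the maternal copy. It lies on chromosome 11 from 2883213 to 2885773 (hg38, minus strand). Its CPM values were 68.8, 74.8 and 77.7 in the olaparib libraries, against 10.8, 12.7 and 10.5 in DMSO. All 3 olaparib libraries stood several-fold above all 3 DMSO libraries. The log2 fold change was 2.71 ± 0.12 (SE, adjusted p = 1.87e-09 by edgeR's quasi-likelihood test), the smallest adjusted p among the members. It stayed between 2.64 and 2.78 under the 13 alternatives.

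The domain of CDKN1C on 11p15.5 is controlled by KCNQ1OT1, a long RNA read from the paternal copy, antisense to KCNQ1, that silences its neighbours in cis. KCNQ1OT1 was lower, at 0.837, 0.392 and 0.212 CPM in olaparib and 8.30, 5.86 and 9.85 CPM in DMSO. Its log2 fold change was -4.05 ± 0.39 (SE, adjusted p = 1.33e-06 by edgeR). Most of the remaining olaparib counts came from replicate 1, and without that library the value was -4.71 (adjusted p = 1.13e-06 by edgeR). The annotated exons of KCNQ1OT1 span 91.7 kb inside KCNQ1, and the sources used here do not say whether the counting used strand, so reads of KCNQ1 and KCNQ1OT1 may not be fully separated.

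Of 7 other genes listed for this domain, 6 were tested, 4 were higher and 2 lower, beside 35.4% and 40.3% of all tested genes. KCNQ1, a potassium channel subunit, averaged 18.5 ± 0.693 CPM in olaparib and 2.31 ± 0.612 CPM in DMSO (SD, n = 3 each). SLC22A18, a membrane transporter, averaged 47.8 ± 5.99 CPM in olaparib and 8.45 ± 2.29 CPM in DMSO. SLC22A18AS, its antisense partner, averaged 3.46 ± 0.139 CPM in olaparib and 0.137 ± 0.0574 CPM in DMSO. These genes thus stood higher along with CDKN1C, in every olaparib library above every DMSO library, although SLC22A18AS passed the filter only through its olaparib counts. PHLDA2, a restrainer of placental growth, differed less, at 49.7 ± 1.57 CPM in olaparib and 24.2 ± 3.33 CPM in DMSO. OSBPL5, a lipid transfer protein at the edge of the domain, went the other way, at 24.97 ± 0.145 CPM in olaparib and 46.8 ± 0.989 CPM in DMSO. KCNQ1DN had no count in any library.

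**Figure D3:**
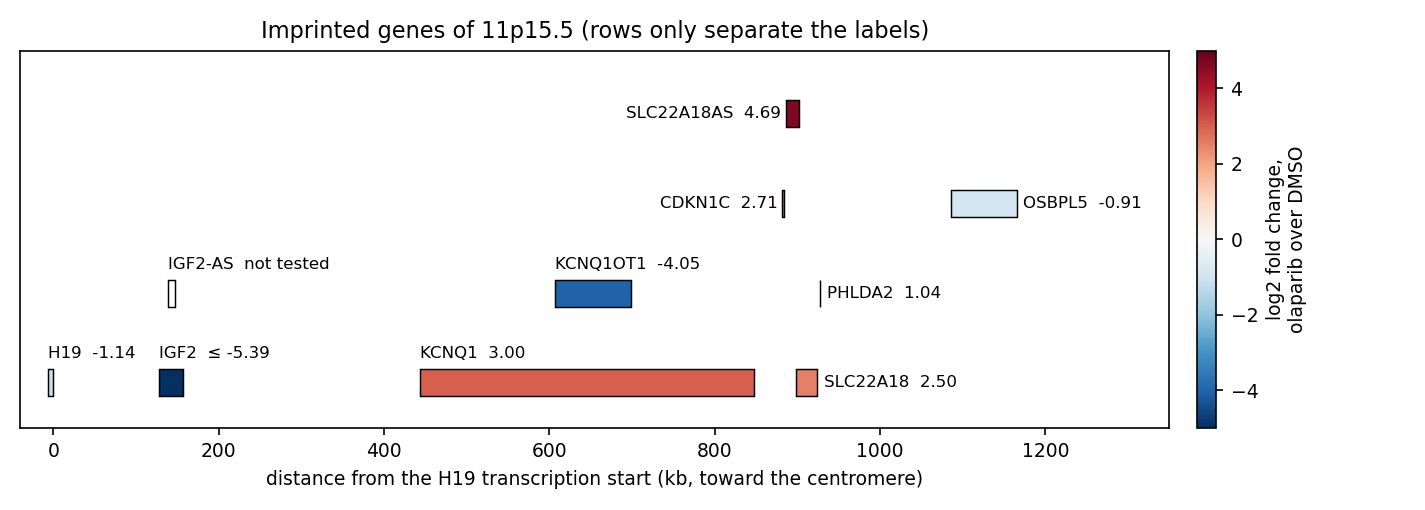
Imprinted genes of 11p15.5 drawn to scale by distance from the H19 start (kb), coloured and labelled by log2 fold change, olaparib over DMSO; rows only separate labels, and IGF2 is shown at its bound. Lower values at H19 (-1.14), IGF2 and KCNQ1OT1 (-4.05) stand beside higher values at KCNQ1, CDKN1C (2.71) and SLC22A18 (2.50).

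IGF2, a fetal growth factor read from the paternal copy, occupies positions 2129112 to 2158658 of the minus strand of chromosome 11. It had no count in any olaparib library, which allows up to 0.0343 CPM over the group at a floor of 3 counts. The DMSO libraries held 110, 14 and 43 counts, or 2.61, 0.472 and 0.971 CPM, so the level was low and uneven in DMSO, lowest in replicate 2. IGF2 was at least 42-fold lower in olaparib (adjusted p = 0.000218 by edgeR), but it passed the filter only through DMSO, so a difference was built in. The bound ran from 22.5-fold without DMSO replicate 1, which held most of the counts, to 51.7-fold without DMSO replicate 2. IGF2-AS, antisense to IGF2, held 0 counts in olaparib and 10 in DMSO. INS and the readthrough gene INS-IGF2 had no count in any library. Exons of INS-IGF2 cover 20.6% of the exonic bases of IGF2 and those of IGF2-AS 5.93%, so reads of these genes may be split between them.

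H19, the non-coding RNA read from the maternal copy at the same control region, lies downstream of IGF2 on the same strand (1995176 to 2001470). It had 13.6, 10.1 and 9.55 CPM in olaparib and 23.5, 27.2 and 22.4 CPM in DMSO. All olaparib libraries were below all DMSO libraries, and replicate 1 was the highest of the olaparib group. The log2 fold change was -1.14 ± 0.16 (SE, adjusted p = 3.96e-05 by edgeR) and stayed between -1.31 and -1.02 under the alternatives. H19 and IGF2, which share enhancers but are read from different parental copies, were thus both lower in the olaparib libraries.

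H19 holds the hairpin of miR-675 in an exon, and MEST holds that of miR-335 outside its annotated exons. Their mature sequences from RefSeq (GRCh38.p14) are shown because these products derive from the RNA of members that fell and rose, with the seed, bases 2 to 8, in capitals.
hsa-miR-675-5p, chr11:1996800-1996822, minus strand: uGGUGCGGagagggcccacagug
hsa-miR-675-3p, chr11:1996768-1996787, minus strand: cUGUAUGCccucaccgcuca
hsa-miR-335-5p, chr7:130496126-130496148, plus strand: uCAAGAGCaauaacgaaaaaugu
hsa-miR-335-3p, chr7:130496162-130496183, plus strand: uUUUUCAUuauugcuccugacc

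No 2 of these 4 share a seed. The rows of MIR675 and MIR335 held no count in any library, and of 1809 rows with a microRNA symbol 493 held any. Levels of the mature microRNAs were not measured.

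MEST, an enzyme of the hydrolase fold that in the mouse promotes growth and fat cell enlargement, is read from the paternal copy on chromosome 7, from 130486171 to 130506465 (plus strand). Its values were 16.5, 22.5 and 20.4 CPM in olaparib, against 2.54, 1.95 and 1.45 CPM in DMSO. The lowest olaparib library was far above the highest DMSO library. The log2 fold change was 3.32 ± 0.23 (SE, adjusted p = 6.6e-08 by edgeR), between 3.11 and 3.55 under the alternatives. MESTIT1, an antisense RNA within MEST, was too low to test; 16 counts fell to olaparib and 1 to DMSO, and their ratio scaled by library size was 21.2 (95% counting error from 3.30 to 889). Of the olaparib counts 10 were in replicate 3, and the ratio was 11.7 without it, 13.5 without DMSO replicate 1 and 13.1 without DMSO replicate 3. Its exons overlap 10.1% of those of MEST on the other strand.

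Farther along 7q32, CPA4, a carboxypeptidase, averaged 21.1 ± 7.75 CPM in olaparib and 2.29 ± 1.11 CPM in DMSO (log2 3.20 ± 0.37, SE, adjusted p = 1.13e-05 by edgeR). KLF14, a transcription factor without introns, moved in the opposite direction, at 1.05, 0.392 and 0.707 CPM in olaparib and 1.68, 4.28 and 3.19 CPM in DMSO (log2 -2.08 ± 0.43, SE, adjusted p = 0.000821 by edgeR). The locus therefore held called differences of both signs.

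SNRPN encodes SmN, a core protein of spliceosomal snRNPs that stands in for SmB in brain and heart, and its first exon overlaps the control region of the Prader-Willi locus. It spans 24823637 to 24978723 of chromosome 15 (plus strand). In olaparib it had 5.13, 4.44 and 4.42 CPM, and in DMSO 0.166, 0.269 and 0.294 CPM, from 7, 8 and 13 counts. The groups were far apart, although the DMSO level rests on few reads. The log2 fold change was 4.25 ± 0.33 (SE, adjusted p = 1.89e-07 by edgeR), between 4.01 and 4.42 under the alternatives. Like SNRPN, SNURF passed the filter only through its olaparib counts. Exons of SNURF, the reading frame upstream on the same transcript, cover 23.8% of the exonic bases of SNRPN, so shared reads may be missing from both rows.

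Among 11 other genes listed for 15q11-q13, 9 had a row, 5 were tested, 4 were higher and 1 lower, beside 35.4% and 40.3% of all tested genes. SNURF had 1.53, 1.83 and 1.49 CPM in olaparib and 0.0949, 0.0674 and 0.0678 CPM in DMSO (log2 4.32 ± 0.47, SE, adjusted p = 3.65e-06 by edgeR). SNHG14, the long host transcript of the snoRNAs of the locus, averaged 117 ± 0.839 CPM in olaparib and 13.8 ± 2.83 CPM in DMSO (log2 3.08 ± 0.14, SE, adjusted p = 3.18e-09 by edgeR). SNRPN, SNURF and SNHG14, which are read in the same direction from the paternal copy, were thus all higher in olaparib, with fitted folds of 19.01, 19.99 and 8.43. UBE3A, a ubiquitin ligase that SNHG14 overlaps in antisense and silences on the paternal copy in neurons, differed little, at 82.8 ± 4.33 CPM in olaparib and 64.1 ± 7.10 CPM in DMSO (log2 0.37 ± 0.11, SE, adjusted p = 0.00785 by edgeR).

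MAGEL2 ran opposite to SNRPN within this locus. This gene of the MAGE family, which regulates protein trafficking on endosomes, had no count in olaparib. In DMSO it was even, at 10.8, 11.1 and 10.8 CPM, which makes it at least 318-fold lower in olaparib. Leaving out 1 library at a time, this bound ran from 207-fold without olaparib replicate 2 to 320-fold without DMSO replicate 1. MAGEL2 passed the filter only through DMSO, so a difference was built in. MKRN3, a ubiquitin ligase that restrains the onset of puberty, averaged 18.8 ± 0.940 CPM in olaparib and 8.24 ± 0.600 CPM in DMSO. NDN, ATP10A and PWAR5 had no count in any library, and NPAP1 held 2 counts, both in olaparib replicate 2.

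**Figure D4:**
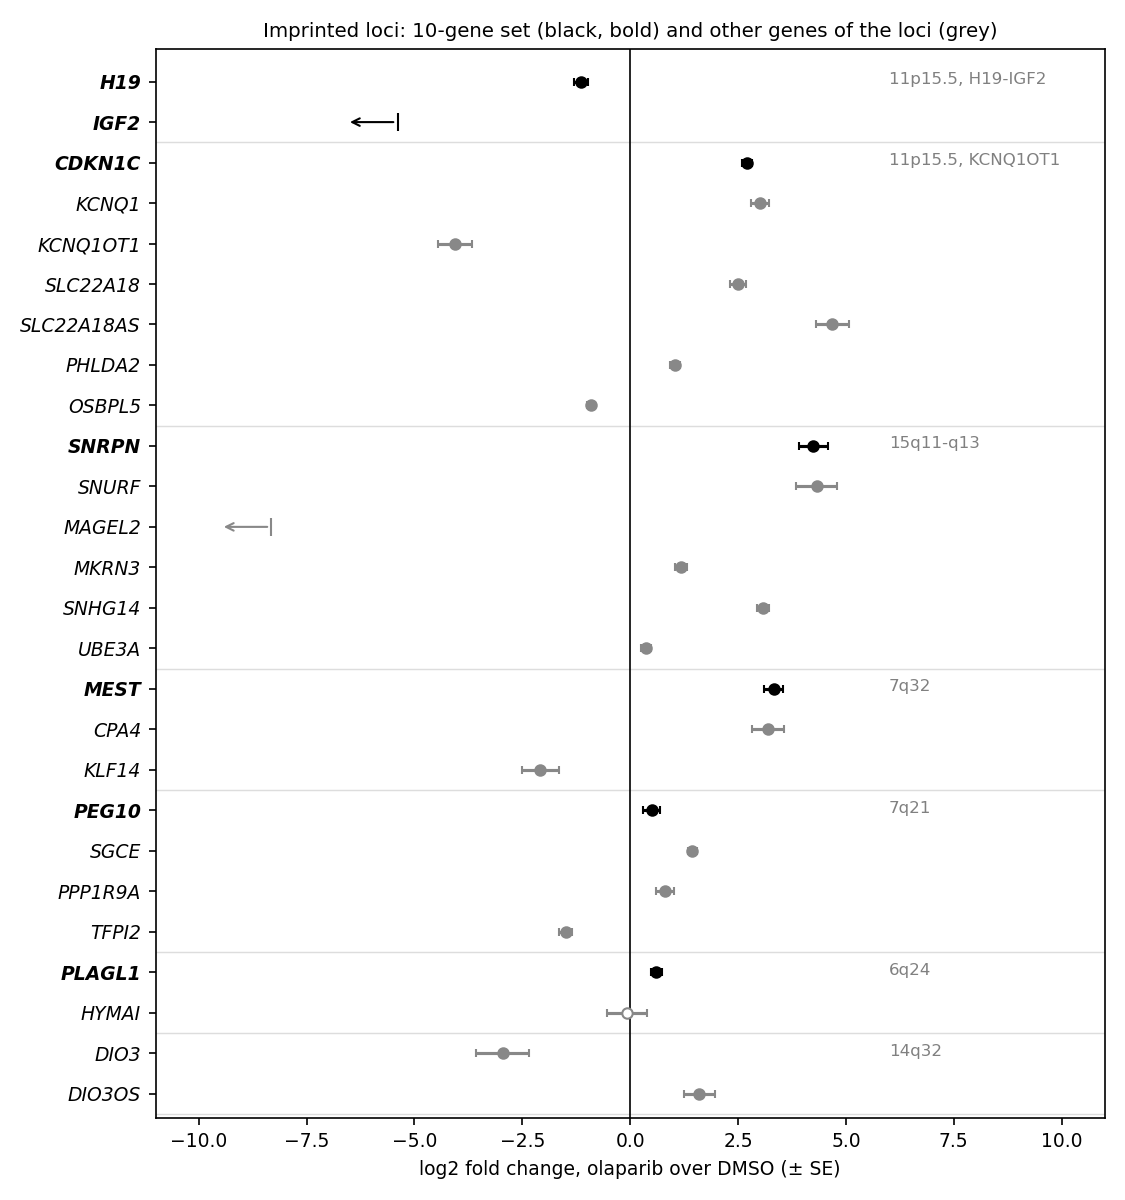
Log2 fold change, olaparib over DMSO (x axis, ± SE), of the tested imprinted genes by locus; the 10-gene set is in black and bold, other genes of the loci are in grey, the open circle did not pass the test, and arrows start at the bound of genes without an olaparib count. The KCNQ1OT1 domain, 14q32, 15q11-q13, 7q32 and 7q21 each hold both higher and lower genes, and H19 and IGF2 are both lower.

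PLAGL1, a zinc finger factor also called ZAC1 that restrains growth and in the mouse regulates other imprinted genes, was the most abundant member by CPM. It lies on chromosome 6 from 143940300 to 144064599 (minus strand). In olaparib it had 279, 214 and 202 CPM, and in DMSO 161, 143 and 153 CPM. The groups did not overlap, and olaparib replicate 1 stood above the other two. The log2 fold change was 0.60 ± 0.13 (SE, adjusted p = 0.000933 by edgeR), between 0.45 and 0.72 under the alternatives. HYMAI, which starts at the same window, did not pass, at 0.634 ± 0.340 CPM in olaparib and 0.663 ± 0.131 CPM in DMSO (log2 -0.08 ± 0.46, SE). Its sign turned without olaparib replicate 1 (0.15), without olaparib replicate 2 (0.12) and without DMSO replicate 3 (0.09).

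PEG10, a gene of retrotransposon origin needed for the placenta in the mouse, is on chromosome 7 from 94656325 to 94669695 (plus strand). Its values were 55.5, 77.6 and 71.9 CPM in olaparib and 62.04, 33.6 and 49.2 CPM in DMSO. The groups overlapped, since DMSO replicate 1 was above olaparib replicate 1. The log2 fold change was 0.50 ± 0.19 (SE, adjusted p = 0.0341 by edgeR), with an adjusted p of 0.00353 to 0.118 over 13 alternatives. By edgeR the call was lost without DMSO replicate 2, the lowest DMSO library (0.28, adjusted p = 0.109), and without DMSO replicate 3 (0.50, adjusted p = 0.0928). It was also lost without olaparib replicate 2 (0.40, adjusted p = 0.118) and without olaparib replicate 3 (0.49, adjusted p = 0.0624), always by edgeR.

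SGCE, a sarcoglycan whose start lies head to head with that of PEG10, differed more clearly, at 47.6 ± 3.87 CPM in olaparib and 17.5 ± 0.922 CPM in DMSO (log2 1.44 ± 0.11, SE, adjusted p = 2.17e-07 by edgeR). PPP1R9A, a neuronal actin-binding protein, averaged 22.2 ± 1.32 CPM in olaparib and 12.6 ± 4.27 CPM in DMSO. TFPI2, an inhibitor of serine proteases, was lower, at 6.21 ± 0.275 CPM in olaparib and 17.5 ± 1.14 CPM in DMSO (log2 -1.49 ± 0.15, SE, adjusted p = 1.76e-06 by edgeR).

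The 14q32 and 19q13 members were at or near 0 in both groups. MEG3, a maternally read RNA known as a growth suppressor (chromosome 14, 100779410 to 100861031, plus strand), held 2 counts in olaparib replicate 1 and 2 in DMSO replicate 3. DLK1, a membrane protein related to Notch ligands (100725705 to 100738224, plus strand), held 2 counts, both in DMSO replicate 2. PEG3, a zinc finger protein (chromosome 19, 56810077 to 56840728, minus strand), had none. A count of 0 over a group allows up to 0.0343 CPM in olaparib and 0.0258 CPM in DMSO. ZIM2, MIMT1 and USP29, neighbours of PEG3, also had no count, as did RTL1, which shares its domain with DLK1, while MEG8 had 1 count over the olaparib libraries against 8 in DMSO, and MEG9 had 2 against 0.

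DIO3, the deiodinase that inactivates thyroid hormone at the far end of 14q32, was detected. It had 0.0697, 0.0653 and 0.354 CPM in olaparib and 0.759, 1.68 and 1.40 CPM in DMSO (log2 -2.96 ± 0.62, SE, adjusted p = 0.000834 by edgeR). Most olaparib counts were in replicate 3, and without it the value was -4.15 (adjusted p = 0.000241 by edgeR). Its antisense neighbour DIO3OS averaged 2.03 ± 0.528 CPM in olaparib and 0.658 ± 0.163 CPM in DMSO (log2 1.60 ± 0.36, SE, adjusted p = 0.00139 by edgeR).

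Levels of different genes were compared per kb of annotated exon. In olaparib the order was CDKN1C (29.8 ± 1.83 CPM per kb), PLAGL1 (26.5 ± 4.76), PEG10 (10.2 ± 1.71), MEST (4.13 ± 0.633), H19 (3.82 ± 0.752) and SNRPN (1.36 ± 0.117). In DMSO it was PLAGL1 (17.4 ± 1.02 CPM per kb), H19 (8.41 ± 0.884), PEG10 (7.21 ± 2.13), CDKN1C (4.57 ± 0.488), MEST (0.413 ± 0.114), IGF2 (0.176 ± 0.146) and SNRPN (0.0712 ± 0.0198). CDKN1C and PLAGL1 overlapped in olaparib, as did MEST and H19. In DMSO the values of H19 and PEG10 overlapped, as did PEG10 and CDKN1C, MEST and IGF2, and IGF2 and SNRPN. By mean, CDKN1C thus stood first in olaparib, though not apart from PLAGL1. In DMSO it stood below PLAGL1 and H19, and below PEG10 by mean only. Exon lengths come from GENCODE release 29, which may differ from the annotation used for counting.

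Over the 8 loci, 38 other imprinted genes were listed, of which 34 had a row and 19 were tested. Of these, 12 were higher, 6 lower and 1 did not pass. Among the 16 that reached the cutoff of the filter in both groups 15 were called, beside 72.6% of all such genes; MAGEL2, SNURF and SLC22A18AS reached it in 1 group only. Over all 19 the median log2 fold change was 1.04, against -0.09 over all tested genes, which describes these genes and supports nothing further. Sorted by the copy usually expressed, as known for these genes in general, 8 of 13 tested paternally expressed genes were higher and 4 lower, members included. Of 10 tested maternally expressed genes 7 were higher and 3 lower. Over all tested genes 35.4% were higher and 40.3% lower. These counts include genes that passed the filter through 1 group only, such as IGF2 and SNRPN. SNRPN and SNURF, which lie on the same transcript, are counted as separate genes, so the counts are not of independent genes. Which copy is expressed in these libraries was not measured.

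At other loci, 20 of 25 imprinted genes with a row were tested, of which 8 were higher and 6 lower while 6 missed the threshold. Their median log2 fold change was 0.22. Of these 20, 3 reached the cutoff of the filter only in DMSO. Among the 17 that reached it in both groups 11 were called, or 64.7%, beside 72.6% of all such genes. ZNF331, a zinc finger repressor, averaged 66.1 ± 9.80 CPM in olaparib and 9.94 ± 1.13 CPM in DMSO (log2 2.73 ± 0.14, SE, adjusted p = 6.66e-09 by edgeR). TP73, a transcription factor, averaged 2.21 ± 0.395 CPM in olaparib and 16.9 ± 1.68 CPM in DMSO. WT1, a factor of kidney development, was at least 229-fold lower, with no olaparib count against 7.79 ± 1.52 CPM in DMSO. MAGI2, a scaffold protein of synapses and podocytes, was at least 167-fold lower, again without an olaparib count, against 5.80 ± 1.31 CPM in DMSO. Both passed the filter only through DMSO. Without olaparib replicate 2 the bounds were 149-fold for WT1 and 109-fold for MAGI2.

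Among 20 factors that set, keep, read or remove imprints, 13 were tested, 4 were higher and 6 lower, with a median log2 fold change of -0.18. Over all tested genes 75.7% were called, which is the share to set beside these counts and those of the other lists. TRIM28, the corepressor that ZFP57 and ZNF445 recruit, averaged 401 ± 13.4 CPM in olaparib and 947 ± 75.5 CPM in DMSO (log2 -1.24 ± 0.11, SE, adjusted p = 8.87e-07 by edgeR). ZNF445 averaged 45.5 ± 1.59 CPM in olaparib and 94.2 ± 20.6 CPM in DMSO. DNMT3A, a methyltransferase that sets new methylation, averaged 10.2 ± 1.07 CPM in olaparib and 29.1 ± 3.97 CPM in DMSO. TET1 had 0, 0.392 and 0.141 CPM in olaparib and 25.9, 10.04 and 21.7 CPM in DMSO (log2 -6.70 ± 0.58, SE, adjusted p = 1.06e-06 by edgeR), and without olaparib replicate 2 the value was -8.02 (adjusted p = 1.33e-06 by edgeR). The other TET enzymes were among the 4 higher genes, TET2 at 32.2 ± 1.88 CPM in olaparib and 20.6 ± 5.95 CPM in DMSO (log2 0.64 ± 0.18, SE, adjusted p = 0.00697 by edgeR) and TET3 at 70.3 ± 6.91 CPM in olaparib and 51.8 ± 11.1 CPM in DMSO (log2 0.44 ± 0.15, SE, adjusted p = 0.0185 by edgeR). ZFP57 and DPPA3 had no count in any library. CTCF did not pass the test, at 91.7 ± 6.45 CPM in olaparib and 88.0 ± 5.97 CPM in DMSO. DNMT1 averaged 326 ± 14.5 CPM in olaparib and 447 ± 31.1 CPM in DMSO (log2 -0.46 ± 0.11, SE, adjusted p = 0.0018 by edgeR). UHRF1 did not pass, at 147 ± 14.6 CPM in olaparib and 167 ± 27.8 CPM in DMSO.

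Of 15 partners of the members, all tested, 5 were higher and 8 lower, 2 missed the threshold, and the median log2 fold change was -0.38. SNRPB, which encodes SmB, the widely expressed relative of SmN, averaged 63.0 ± 2.99 CPM in olaparib and 320 ± 38.3 CPM in DMSO (log2 -2.34 ± 0.12, SE, adjusted p = 5.05e-09 by edgeR). SNRPB thus went opposite to SNRPN. SMN1, which loads Sm proteins onto snRNAs and has a near-identical copy in SMN2, was lower too, at 6.96 ± 0.682 CPM in olaparib and 21.8 ± 1.52 CPM in DMSO. NOTCH1, the receptor that DLK1 can inhibit, averaged 152 ± 32.3 CPM in olaparib and 50.5 ± 6.47 CPM in DMSO.

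PEG10 belongs to a family derived from a retrotransposon, of which 11 other genes were listed and 8 tested, 1 higher and 5 lower, with a median log2 fold change of -0.53. RTL5 had 0, 0.196 and 0.283 CPM in olaparib and 12.5, 15.4 and 13.6 CPM in DMSO (log2 -6.40 ± 0.42, SE, adjusted p = 4.87e-08 by edgeR), and without olaparib replicate 3 the value was -7.03 (adjusted p = 1.63e-07 by edgeR). RTL9 was at least 48.0-fold lower, with no olaparib count against 1.61 ± 0.359 CPM in DMSO, and at least 31.2-fold lower without olaparib replicate 2. RTL5 and RTL9 passed the filter only through DMSO. RTL8A, which has close paralogs, averaged 43.5 ± 5.26 CPM in olaparib and 81.8 ± 6.04 CPM in DMSO. RTL10 averaged 48.4 ± 6.98 CPM in olaparib and 76.5 ± 8.10 CPM in DMSO.

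Protein-coding genes tested within 5 Mb of each member were set beside it by fitted log2 fold change, with no minimum level beyond the filter. Around MEST, 50 such genes had a median of -0.30, and 3 exceeded MEST. Around SNRPN there were 15, with a median of 0.51, of which 1, SNURF, exceeded SNRPN. CDKN1C had 99 with a median of -0.40, of which 13 exceeded it. H19 had 98 with a median of -0.38, of which 26 were lower than H19. IGF2 had 97 with a median of -0.36, of which 2 were lower than its fitted value. PEG10 and PLAGL1 had 22 of 64 and 9 of 25 neighbours above them. Every tested member lay between the lowest and the highest of its neighbours. No test was made of a member against its region.

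The genes whose pattern over the 6 libraries was most like that of PLAGL1, the most abundant member, were WSB1, SOAT1 and CCDC17, with a mean absolute difference of 0.0378, 0.0485 and 0.0515 in centred log2 of CPM + 0.5. Closest to CDKN1C were TBC1D8 (0.0151), the ferritin pseudogene FTH1P12 (0.0291) and EVPL (0.0419). The offset of 0.5 draws low genes together. FTH1P12 averaged 3.17 CPM in olaparib and 0.0683 CPM in DMSO, and its fitted log2 fold change was 5.61, against 2.71 for CDKN1C, so its likeness holds only on the offset scale.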

How the data were processed

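RNA was sequenced from 3 olaparib and 3 DMSO libraries, grouped and numbered by their titles. The authors deposited raw read counts per gene symbol, 1 column for each library. Per the submitters' processing notes, fastp and STAR were used with build hg38. The counting program, its annotation and strand setting remain unknown, as the sources used here do not give them. In all 6 libraries more genes held 2 counts than 1, so counts are not independent single reads, and intervals and floors, which cover counting error only, may be too narrow.

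The default filter of edgeR 4.0.16 (R 4.3.3) left 17078 genes, whose counts were tested by robust quasi-likelihood with TMM scaling and treatment as the only term, with Benjamini-Hochberg adjustment over all of them and calls at 0.05. CPM are counts per 1000000 of the TMM-scaled library size. Each standard error was obtained from the log2 fold change and its F value. For genes at 0 in a group, the bound on the fold uses 3 counts over that group. The test was also run on simulated counts in which far fewer genes were changed than were called here. That run therefore does not vouch for the scaling or the calls in these data.

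Genes were placed and their exon lengths taken from GENCODE release 29, which matched 93.7% of symbols. Named genes were all members, the genes of their loci, up to 4 called genes with the smallest adjusted p from each of 4 further lists, and the 3 genes most like PLAGL1 and CDKN1C, by log2 of CPM + 0.5; 1 gene that this rule names is not reported here. HYMAI, CTCF, ZFP57, DPPA3, DNMT1, UHRF1, TET2, TET3, HNF4A, KRT8, KRT18 and the single markers were added after their values were seen. The members and lists were chosen with earlier results of these data known. Alternatives were RLE size factors, library size alone, 2 other filters, DESeq2 1.42.0, limma-voom (limma 3.58.1), the replicate number as a block and the loss of each library.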

Additional observations from a re-analysis of the deposited data

How the results depend on the processing

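Of the 7 tested members, 6 kept their direction and call under each of the 13 alternatives that tested them, as did 34 of 35 other named genes, and the exceptions were PEG10 and HYMAI. PEG10 was positive throughout and lost its call with library size alone (0.43, adjusted p = 0.0694 by edgeR), with no filter beyond 1 count (0.49, adjusted p = 0.0859), with the replicate block (0.53, adjusted p = 0.0558) and without 4 of the libraries. HYMAI, not called in any fit, ranged down to -0.578 without olaparib replicate 3 and turned to 0.146, 0.119 and 0.091 without olaparib replicate 1, olaparib replicate 2 and DMSO replicate 3; the cause was not tested. With the stricter filter, at least 1 CPM in 3 libraries, 1 member was lower in place of 2, since IGF2 was no longer tested. The fitted IGF2 value moved from -8.54 to -7.58 without DMSO replicate 1 and to -6.06 with limma-voom. It ran from -8.97 to -6.06 over the alternatives that tested it. Same-numbered libraries did not deviate together (correlations -0.0901, -0.0423 and -0.00173), so the numbers were not taken as pairs, and the replicate block called 5797 genes higher and 6628 lower, against 6045 and 6882 without it. No alternative scaling shifted the median of all genes by more than 0.068 (log2). With 75.7% of genes called, this does not show that the scaling is right, and small differences such as that of PEG10 depend on it. At this depth MEG3, DLK1 and PEG3 were not detectable above 3 counts in any library.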
